A study of Mus musculus with 44 samples.

Results

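Transcripts of 10 genes that govern entry into the cell cycle were followed in mouse ovarian follicles exposed to perfluorononanoic acid (PFNA), a persistent fluorinated compound of the PFAS class. They are the D-type cyclin genes Ccnd1, Ccnd2 and Ccnd3, the kinase genes Cdk4 and Cdk6, and the CDK inhibitor genes Cdkn1a, Cdkn1b, Cdkn1c, Cdkn2c and Cdkn2d. The genes were taken by symbol from a table of 22674 genes for a maturation window and a table of 18274 genes for an ovulation window. Each of the 10 was present in both tables and passed the filter on low values in both.

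RNA sequencing covered 44 libraries of follicles from wild-type CD-1 mice, an outbred strain. In the maturation window, when follicle growth depends on gonadotropin, 11 control libraries treated with the solvent DMSO were compared with 10 libraries treated with PFNA. In the ovulation window, 12 control libraries that had received hCG (human chorionic gonadotropin, the hormone that triggers ovulation) were compared with 11 that had received hCG and PFNA. The dose, the duration of exposure, the age of the animals and the number of follicles per library were not given in the labels. Nothing in the labels says which libraries came from separate animals or cultures, so p-values measure the spread between libraries, part of which may be technical.

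D-type cyclins are made in response to growth signals and bind CDK4 or CDK6. The active complexes phosphorylate the retinoblastoma proteins, which frees E2F transcription factors and lets the cell enter S phase. Inhibitors of the Cip/Kip family (Cdkn1a, Cdkn1b and Cdkn1c) bind many cyclin-CDK complexes, whereas those of the INK4 family (Cdkn2c and Cdkn2d) bind CDK4 and CDK6. In granulosa cells, the somatic cells that surround the oocyte, Ccnd2 is the D cyclin known to respond to FSH (follicle-stimulating hormone), and these cells are known to stop dividing after the ovulatory hormone surge.

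Maturation values were read as TPM (an abundance per transcript length, scaled to the same total in every library), for which the sequencing depth is unknown. Ovulation values are CPM (counts scaled for library size), from 11961105 to 16045751 estimated counts in each control library and 10600931 to 19511531 in each PFNA library. The 8 granulosa markers summed to 34113 to 54476 TPM in maturation controls and 14567 to 40769 TPM with PFNA, and 6 of the 8 fell. Most of that sum was the inhibin gene Inha, with means of 34970 TPM in controls and 21742 TPM with PFNA. The mean sums were 44466.5 and 28798.9 TPM, so the sum largely follows that gene. The 22 oocyte markers summed to 326 to 501 TPM in maturation controls and 29.6 to 774 TPM with PFNA, where 19 of 20 tested fell. Among those PFNA libraries, replicates 1, 2 and 10 stood apart at 337, 252 and 774 TPM, with the other 7 between 29.6 and 77.9 TPM. In the ovulation window the oocyte sum was 262 to 673 CPM in controls and 171 to 959 CPM with PFNA. By edgeR 13 of 21 tested oocyte markers rose there, but only 6 with limma on log2(TMM CPM + 1). The granulosa sum was 11577 to 18161 CPM in ovulation controls (mean 14399) and 9431 to 15265 CPM with PFNA (mean 11934), so it lay lower with PFNA on average, although 5 of the 8 markers rose and 2 fell. Of all genes tested in that window 38% rose and 35.2% fell. Of the other marker lists, 6 of 10 theca and stroma, 4 of 8 immune and 5 of 6 endothelial markers rose there with PFNA, and 1 theca and stroma marker fell. The immune marker Cd3e lay between 0 and 0.507 CPM in ovulation controls and between 153 and 656 CPM with PFNA, while the other immune markers together summed to 1.35 to 109 CPM and 3.03 to 147 CPM. In the maturation window 1 theca and stroma marker rose and 1 fell of 10, 2 of 4 tested immune markers rose, and none of 4 tested endothelial markers passed the test. No marker of any list was at 0 in every library of a window. The part of these cell types in the results below was not tested. In such bulk samples fewer cells of a type and less RNA per cell cannot be told apart. The level of oocyte markers served as a covariate in alternative fits. In maturation it was 29.6 to 77.9 TPM in 7 PFNA libraries and 326 to 501 TPM in controls. Those fits therefore rest largely on PFNA replicates 1, 2 and 10, and calls kept or lost in them cannot separate PFNA from marker level.

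The first comparison asked how PFNA altered the 10 genes during maturation. Ccnd2, Cdk4, Cdkn1a, Cdkn2c and Cdkn2d fell, no gene rose, and Ccnd1, Ccnd3, Cdk6, Cdkn1b and Cdkn1c did not pass the test. A gene was called at an adjusted p under 0.05 with limma on log2(TPM + 1), a scale that understates the change of low genes. Over all 13712 genes tested, 29.4% were called, 13.3% higher and 16.1% lower. The median log2 fold change was -0.34 over the 10 genes and 0.02 over all genes. None of the 10 genes had control and PFNA ranges that were fully apart, a separation seen in 1.28% of all genes.

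Among the D cyclins, Ccnd2 (GRCm38 chr6:127125162-127152193, minus strand) held most of the transcript pool. Its controls lay between 78.5 and 166 TPM with a median of 136 TPM, and the PFNA libraries between 18.6 and 120 TPM with a median of 25.1 TPM. Of the 10 PFNA libraries, 9 were below every control, and the exception was replicate 1 at 120 TPM. Replicate 2 followed at 60.2 TPM and replicate 10 at 39.1 TPM, with the other 7 at or below 27.6 TPM. The mean fell from 133 ± 24.8 TPM (n = 11, SD) to 38.4 ± 31.2 TPM (n = 10, SD), a log2 fold change of -2.00 with a standard error of 0.25 (limma, adjusted p = 1.03e-05). Without PFNA replicates 1 and 2 the log2 fold change was -2.34 (limma adjusted p = 1.41e-10). Those 2 libraries had the highest Ccnd2 of the PFNA group, so a larger fall without them follows from leaving them out. With the summed oocyte markers as a covariate it was -1.17 (limma adjusted p = 0.0155), which kept the call at a smaller size.

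Ccnd1 (chr7:144929931-144939925, minus strand), the D cyclin most often amplified in tumours, was near the lower limit of the table. It ranged from 0.722 to 2.06 TPM in controls and from 1.05 to 3.92 TPM with PFNA, where 4 libraries lay above every control. Its log2 fold change of 0.31 (95% confidence interval 0.00 to 0.63) did not pass after adjustment (limma adjusted p = 0.122), and it was -0.04 with the oocyte covariate. Ccnd3 (chr17:47505051-47599691, plus strand), the D cyclin best known from lymphocytes and muscle, spanned 2.73 to 4.5 TPM in controls and 2.72 to 5.24 TPM with PFNA. PFNA replicate 10 at 5.24 TPM was the single library above every control, and the log2 fold change was -0.02 (95% confidence interval -0.21 to 0.17, limma adjusted p = 0.885). Summed over the 3 genes, D cyclin transcripts went from 138 ± 24.4 TPM (n = 11, SD) to 43.8 ± 30.8 TPM (n = 10, SD). Ccnd2 made up 96.3% ± 1.28 of that sum in controls (n = 11, SD) and 84.2% ± 6.38 with PFNA (n = 10, SD). The share of Ccnd3 was 2.59% ± 0.828 and 9.67% ± 3.55 in the same groups, and that of Ccnd1 1.09% ± 0.526 and 6.15% ± 3.52.

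**Figure D1:**
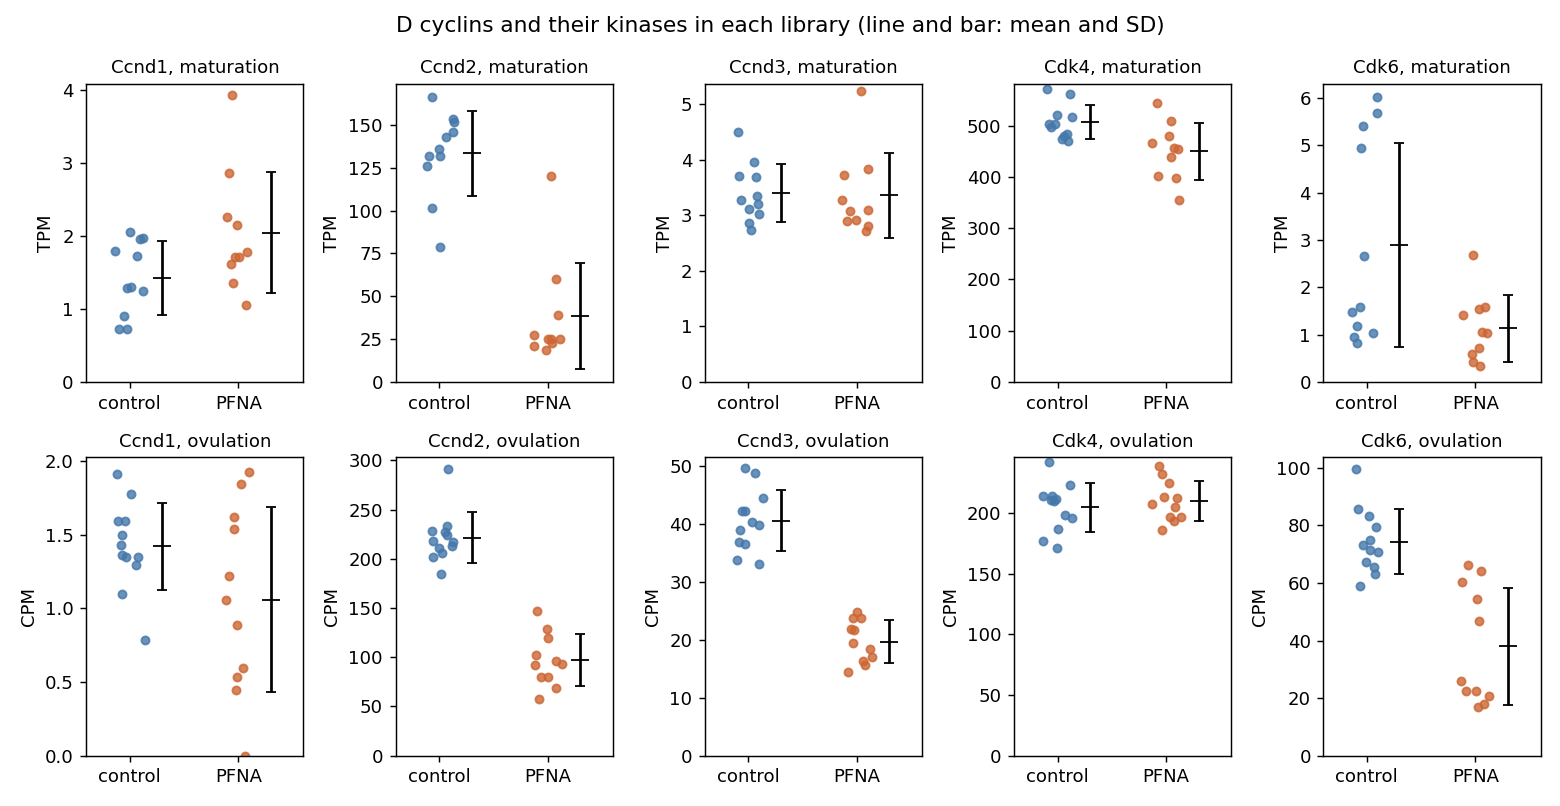
D cyclin and kinase levels in each library, in TPM for the maturation window (upper row) and CPM for the ovulation window (lower row). Each point is a library, and the line and bar beside the points give the mean and SD of the group. Ccnd2 with PFNA was at or below 60.2 TPM in 9 of 10 maturation libraries, and its 11 ovulation libraries lay between 57.5 and 147 CPM, below every control.

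Cdk4 (chr10:127063534-127067920, plus strand), the main partner kinase of the D cyclins, was the most abundant of the 10 genes in the maturation window. Controls lay between 470 and 571 TPM and PFNA libraries between 354 and 543 TPM, and 7 of 10 PFNA libraries were below every control. The mean fell from 507 ± 33.6 TPM (n = 11, SD) to 450 ± 55.5 TPM (n = 10, SD), a small log2 fold change of -0.18 with a standard error of 0.06 (limma, adjusted p = 0.0361). The call was lost when genes holding over 1% of TPM were left out before rescaling (limma adjusted p = 0.0595), with the oocyte covariate (log2 fold change -0.01, limma adjusted p = 0.972), and when any one of 7 libraries was omitted, namely control replicates 9, 10 and 11 or PFNA replicates 3, 4, 5 and 8 (limma adjusted p 0.0520 to 0.0684). Tspan31, whose exons overlap those of Cdk4, had a log2 fold change of -0.16 there (limma adjusted p = 0.130). Reads from the shared part cannot be assigned to either gene. Cdk6 (chr5:3341485-3531008, plus strand), the alternative partner kinase, varied widely among the controls themselves. Control replicates 1, 3, 6 and 7 held 4.95 to 6.02 TPM, and the other 7 controls held 0.826 to 2.66 TPM. With PFNA the range was 0.332 to 2.68 TPM, so every PFNA library was below those 4 controls. Of the PFNA libraries, 4 were below every control, and the PFNA range overlapped that of the other 7 controls. The log2 fold change of -0.73 (SE 0.28) just missed the threshold (limma adjusted p = 0.0511), and it passed without PFNA replicates 1 and 2 (-0.86, limma adjusted p = 0.0243). PFNA replicate 1 had the highest Cdk6 of its group at 2.68 TPM, so a larger fall without it follows from leaving it out. Cdk4 supplied 99.4% ± 0.447 of the TPM of both kinases in controls (n = 11, SD) and 99.8% ± 0.141 with PFNA (n = 10, SD).

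Of the Cip/Kip inhibitors, Cdkn1a (chr17:29090976-29100727, plus strand), a p53 target induced by many stresses, fell. Control values ran from 22.9 to 84.9 TPM with a median of 47.6 TPM, and PFNA values from 8.54 to 50.8 TPM with a median of 22.5 TPM. In 6 of 10 PFNA libraries the level was below every control, and replicate 2 was the highest at 50.8 TPM. The means were 46.3 ± 17.2 TPM (n = 11, SD) and 22.6 ± 11.96 TPM (n = 10, SD), with a log2 fold change of -1.08 with a standard error of 0.26 (limma, adjusted p = 0.00324). With the oocyte covariate the log2 fold change was -1.09, but its adjusted p was 0.0707 (limma). Cdkn1b (chr6:134920401-134925513, plus strand), which holds cells in quiescence, lay between 143 and 233 TPM in controls and between 174 and 306 TPM with PFNA. Replicate 10 alone was far above the controls, and the log2 fold change of 0.18 (95% confidence interval -0.01 to 0.36) was not called (limma adjusted p = 0.142). Cdkn1c (chr7:143458339-143461050, minus strand), an imprinted gene whose product restrains growth, ranged from 44.8 to 74.6 TPM in controls and from 40.5 to 175 TPM with PFNA. PFNA libraries lay on both sides, with 6 above every control and 1 below, and the log2 fold change of 0.35 (95% confidence interval -0.02 to 0.72) was not called (limma adjusted p = 0.148). The call for Cdkn1c turned on PFNA replicate 4, the lowest library, without which the log2 fold change was 0.45 (limma adjusted p = 0.0405). The Cip/Kip transcripts summed to 298 ± 37.7 TPM in controls (n = 11, SD) and 323 ± 61.0 TPM with PFNA (n = 10, SD), and Cdkn1b was the largest part of both at 63.5% ± 2.93 and 67.0% ± 6.64. Within that sum the share of Cdkn1a went from 15.3% ± 4.49 to 7.37% ± 4.06.

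Both INK4 inhibitors fell in the maturation window. Cdkn2c (chr4:109660876-109667189, minus strand), which binds CDK6 and CDK4, lay between 34.1 and 64.8 TPM in controls with a median of 42.3 TPM, and between 11.004 and 40.6 TPM with PFNA with a median of 14.9 TPM. As for Ccnd2, the highest PFNA libraries were replicate 1 at 40.6 TPM, within the control range, and replicate 2 at 33.0 TPM, and the other 8 were at or below 17.6 TPM. The means were 45.7 ± 10.8 TPM (n = 11, SD) and 18.8 ± 9.83 TPM (n = 10, SD), a log2 fold change of -1.32 with a standard error of 0.19 (limma, adjusted p = 4.29e-05). With the oocyte covariate the value was -0.78 (limma adjusted p = 0.0432). Cdkn2d (chr9:21288410-21291407, minus strand), the other INK4 inhibitor measured, went from 31.8 ± 6.81 TPM (n = 11, SD) to 22.1 ± 4.87 TPM (n = 10, SD). Its control range of 20.9 to 43.5 TPM overlapped the PFNA range of 11.9 to 28.9 TPM, and 3 of 10 PFNA libraries were below every control. The log2 fold change was -0.51 with a standard error of 0.14 (limma, adjusted p = 0.00772), and -0.24 with the oocyte covariate (limma adjusted p = 0.411). The 2 genes together went from 77.5 ± 15.1 TPM (n = 11, SD) to 41.0 ± 13.3 TPM (n = 10, SD), and Cdkn2c went from 58.8% ± 5.61 to 44.4% ± 8.28 of that sum.

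**Figure D2:**
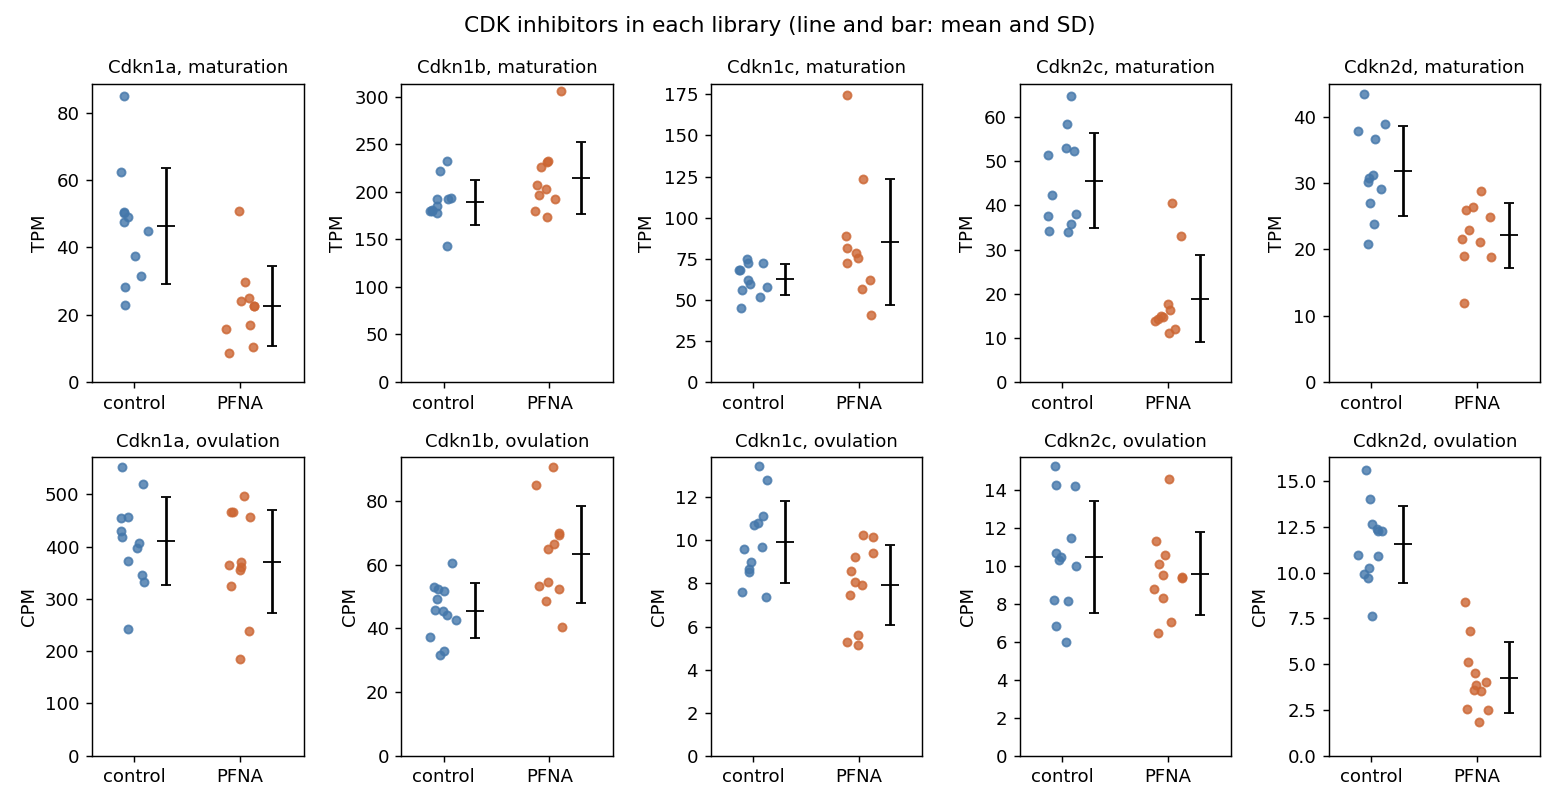
CDK inhibitor levels in each library, in TPM for the maturation window (upper row) and CPM for the ovulation window (lower row). Each point is a library, and the line and bar give the group mean and SD. Cdkn2c with PFNA was at or below 17.6 TPM in 8 of 10 maturation libraries, and Cdkn2d was below every control in 10 of 11 ovulation libraries.

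The second comparison asked how PFNA altered the same genes after hCG. Ccnd2, Ccnd3, Cdk6, Cdkn1c and Cdkn2d fell, Cdkn1b rose, and Ccnd1, Cdk4, Cdkn1a and Cdkn2c did not pass the test (edgeR's quasi-likelihood test, adjusted p under 0.05). Of all 13441 genes tested, 73.2% were called, 38% higher and 35.2% lower, so 6 called of 10 was not above that share. The median log2 fold change was -0.37 over the 10 genes and 0.04 over all genes. Control and PFNA ranges were fully apart for Ccnd2 and Ccnd3, against 26% of all genes.

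Ccnd2 controls lay between 184 and 291 CPM with a median of 218 CPM, and PFNA libraries between 57.5 and 147 CPM with a median of 93.4 CPM. Every PFNA library was below every control. The mean fell from 221 ± 25.8 CPM (n = 12, SD) to 96.8 ± 26.5 CPM (n = 11, SD), a log2 fold change of -1.19 with a standard error of 0.12 (edgeR, adjusted p = 1.75e-09). Ccnd3 lay between 33.0 and 49.7 CPM in controls and between 14.4 and 24.8 CPM with PFNA, again with no overlap. Its mean fell from 40.6 ± 5.28 CPM (n = 12, SD) to 19.7 ± 3.64 CPM (n = 11, SD), a log2 fold change of -1.04 with a standard error of 0.10 (edgeR, adjusted p = 4.89e-10). Bysl, whose exons overlap those of Ccnd3, also fell (log2 fold change -0.85, edgeR adjusted p = 2.48e-08), and as the use of strand in counting is not given in the sources used here, reads from the shared part cannot be assigned to 1 of the genes. Ccnd1 was close to the detection limit, at 0.788 to 1.92 CPM in controls and 0 to 1.93 CPM with PFNA. PFNA replicate 6 had 0 counts of Ccnd1, which allows up to 0.220 CPM at 3 counts, counting error only. The log2 fold change of -0.42 had a wide interval (95% confidence interval -1.12 to 0.28) and was not called (edgeR adjusted p = 0.272).

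Promoter sequences from RefSeq on GRCm38.p6 were matched for 7 of the 10 genes, and those of Ccnd1, Ccnd2 and Cdkn1c were not used here. The bases before the start are shown for the called genes of the ovulation window in which a CCAAT box was found, 2 that fell and 1 that rose, as far as they lay outside annotated exons. Capitals mark motifs on either strand. The GC box was searched as GGGCGG and the CCAAT box by the letters of its name. The core of the cAMP response element was searched as TGACG, and no motifs overlapped. The Ccnd3 stretch is chr17:47593217-47593435 (plus strand) at the second of 2 annotated starts, that of Cdkn1b is chr6:134920151-134920400 (plus strand), and that of Cdkn2d is chr9:21291408-21291459 (minus strand).
Ccnd3: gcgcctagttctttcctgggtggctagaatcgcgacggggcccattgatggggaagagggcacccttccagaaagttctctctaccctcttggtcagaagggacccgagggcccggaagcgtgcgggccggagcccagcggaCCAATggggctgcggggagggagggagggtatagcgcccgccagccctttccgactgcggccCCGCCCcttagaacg
Cdkn1b: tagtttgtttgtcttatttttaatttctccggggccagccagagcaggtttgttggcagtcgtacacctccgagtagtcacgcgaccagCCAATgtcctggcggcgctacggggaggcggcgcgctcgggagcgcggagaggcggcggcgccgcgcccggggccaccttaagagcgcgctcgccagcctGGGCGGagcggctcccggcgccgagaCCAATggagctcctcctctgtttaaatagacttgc
Cdkn2d: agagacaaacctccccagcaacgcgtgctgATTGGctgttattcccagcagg
Counted from the RefSeq start, the CCAAT boxes began at -108 in Ccnd3, at -161 and -35 in Cdkn1b and at -220 in Cdkn2d, and GC boxes at -46 in Ccnd3 and -61 in Cdkn1b. Over the same stretch, 30.9% of all 32851 RefSeq promoters held a CCAAT box for the Ccnd3 position, 33.9% for Cdkn1b and 7.23% for Cdkn2d. GC boxes stood in 28.3% and 32.7% of promoters over the Ccnd3 and Cdkn1b stretches. None of the 3 printed stretches held the cAMP response element core, which 14.7%, 17.8% and 2.62% of promoters held over the respective stretches. The stretch before the first Ccnd3 start held no CCAAT box, but the cAMP response element core began there at -165 and GC boxes at -152 and -18. That core also began at -90 before Cdk4, with a GC box at -80. The 89 bases outside exons before Cdk6 held none of the 3 motifs, nor did the 247 before the first Cdkn1a start. No bases outside exons were left before the second Cdkn1a start or before either Cdkn2c start.

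Cdk4 did not pass the test in the ovulation window, at 172 to 242 CPM in controls and 186 to 239 CPM with PFNA. The ranges were nested, and the log2 fold change was 0.04 (95% confidence interval -0.08 to 0.16, edgeR adjusted p = 0.584). Tspan31, which shares exonic bases with Cdk4, fell in the same comparison (log2 fold change -0.41, edgeR adjusted p = 5.57e-06). Cdk6 fell from 74.4 ± 11.2 CPM (n = 12, SD) to 38.0 ± 20.3 CPM (n = 11, SD), a log2 fold change of -0.97 with a standard error of 0.22 (edgeR, adjusted p = 4.77e-04). Controls spanned 58.9 to 99.5 CPM, and 8 of 11 PFNA libraries lay below all of them. PFNA libraries left a gap in the middle of their range, with replicates 1, 2, 4, 7 and 10 between 46.8 and 66.1 CPM and the other 6 between 16.9 and 26.1 CPM.

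Cdkn1b was the gene that rose after hCG. Its controls lay between 31.8 and 60.6 CPM with a median of 45.7 CPM, and PFNA libraries between 40.6 and 90.8 CPM with a median of 65.0 CPM. Of the 11 PFNA libraries, 6 were above every control, and the mean rose from 45.6 ± 8.60 CPM (n = 12, SD) to 63.3 ± 15.3 CPM (n = 11, SD), a log2 fold change of 0.47 with a standard error of 0.12 (edgeR, adjusted p = 0.00135). With the oocyte covariate this became 0.21 (edgeR adjusted p = 0.111). Cdkn1a, which was abundant in this window, spanned 243 to 552 CPM in controls and 184 to 497 CPM with PFNA. The ranges overlapped over most of their length, and the log2 fold change of -0.15 (95% confidence interval -0.44 to 0.15) was not called (edgeR adjusted p = 0.362). Cdkn1c fell slightly, from 9.95 ± 1.90 CPM (n = 12, SD) to 7.92 ± 1.87 CPM (n = 11, SD), with 3 of 11 PFNA libraries below every control. Its log2 fold change of -0.33 with a standard error of 0.14 (edgeR, adjusted p = 0.0342) lost the call with the oocyte covariate (edgeR adjusted p = 0.0586), with a filter at 5 CPM (edgeR adjusted p = 0.0992), and on omitting control replicate 7 or 8 or PFNA replicate 3, 7 or 8 (edgeR adjusted p 0.0619 to 0.0679).

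Of the INK4 inhibitors, Cdkn2d was called after hCG and Cdkn2c was not, and the difference between these genes was not tested. Cdkn2d lay between 7.65 and 15.6 CPM in controls with a median of 11.6 CPM, and between 1.83 and 8.38 CPM with PFNA with a median of 3.87 CPM. All PFNA libraries but replicate 10, at 8.38 CPM, were below every control. The mean fell from 11.5 ± 2.11 CPM (n = 12, SD) to 4.24 ± 1.94 CPM (n = 11, SD), a log2 fold change of -1.43 with a standard error of 0.20 (edgeR, adjusted p = 3.95e-07), the most negative of the 10 genes in this window. Cdkn2c spanned 5.98 to 15.2 CPM in controls and 6.44 to 14.5 CPM with PFNA, with the second range inside the first. Its log2 fold change was -0.13 (95% confidence interval -0.45 to 0.19, edgeR adjusted p = 0.463).

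**Figure D3:**
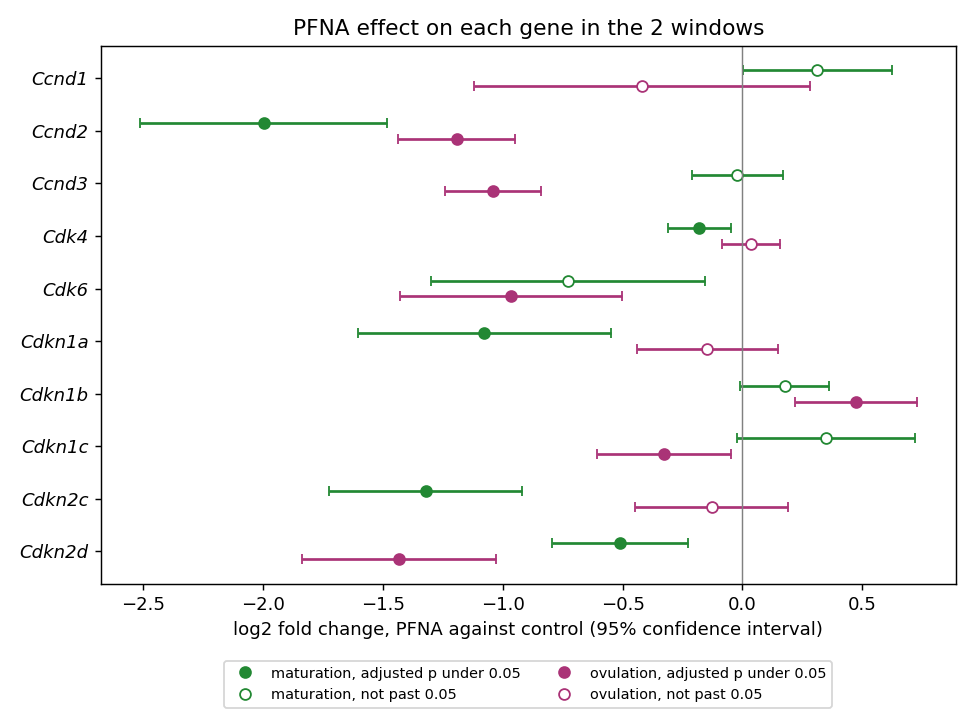
The log2 fold change of PFNA against control for each gene, with its 95% confidence interval on the horizontal axis, for the maturation window (green, limma on log2(TPM + 1)) and the ovulation window (purple, edgeR on counts). Filled points passed an adjusted p of 0.05. Ccnd2 and Cdkn2d were filled on the negative side in both windows, and Cdkn1b was filled on the positive side in the ovulation window.

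Levels can be compared between genes where they are expressed per transcript length. In maturation controls the mean order was Cdk4 at 507 TPM, Cdkn1b at 189, Ccnd2 at 133, Cdkn1c at 62.5, Cdkn1a at 46.3, Cdkn2c at 45.7, Cdkn2d at 31.8, Ccnd3 at 3.40, Cdk6 at 2.89 and Ccnd1 at 1.43 TPM. Control ranges of neighbours in that order were apart between Cdk4 and Cdkn1b, between Ccnd2 and Cdkn1c, and between Cdkn2d and Ccnd3, and overlapped for the other neighbours. For the ovulation window, CPM was divided by the length of the annotated exons. Cdkn1a was then the highest in controls at 116 ± 23.5 CPM per kb, followed by Cdk4 at 63.0 ± 6.12, Ccnd2 at 23.5 ± 2.74, Cdkn1b at 10.01 ± 1.89 and Cdkn2d at 7.33 ± 1.34 CPM per kb (n = 12, SD). Below these, Cdk6 at 5.31 ± 0.800, Cdkn1c at 4.88 ± 0.934, Ccnd3 at 4.62 ± 0.602 and Cdkn2c at 3.90 ± 1.10 CPM per kb differed from the next by less than the larger SD of each pair (n = 12, SD). Ccnd1 was lowest at 0.302 ± 0.0631 CPM per kb (n = 12, SD). The tables differ in unit and gene models, so no level was compared between windows.

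Whether PFNA acted differently in the windows was tested per gene as the ovulation effect minus the maturation effect, with limma run on each table apart. The effect differed for 8 of the 10 genes, and for 67.7% of the 11215 genes tested in both windows, with 32% positive and 35.6% negative. It was more negative in the maturation window for Cdkn2c (difference 1.22, SE 0.24, limma adjusted p = 2.51e-05), Cdkn1a (0.91, SE 0.29, limma adjusted p = 0.00735), Ccnd2 (0.77, SE 0.27, limma adjusted p = 0.0140) and Cdk4 (0.22, SE 0.09, limma adjusted p = 0.0229). The effect was more negative in the ovulation window for Ccnd3 (difference -0.99, SE 0.13, limma adjusted p = 6.77e-09), Cdkn2d (-0.81, SE 0.21, limma adjusted p = 7.78e-04), Cdkn1c (-0.66, SE 0.22, limma adjusted p = 0.00765) and Ccnd1 (-0.60, SE 0.22, limma adjusted p = 0.0123). Bysl, whose exons overlap those of Ccnd3, changed by 0.06 during maturation (limma adjusted p = 0.594) and -0.85 after hCG (edgeR adjusted p = 2.48e-08). Shared reads cannot be assigned, so their part in the Ccnd3 difference was not tested. Nor was that of reads shared with Tspan31 in the Cdk4 difference. For Cdk6 the difference of -0.39 (95% confidence interval -1.10 to 0.32) and for Cdkn1b that of 0.27 (95% confidence interval -0.03 to 0.58) did not pass (limma adjusted p = 0.324 and 0.104). The comparison sets TPM beside CPM, and adding 1 to either compresses low genes unequally, which bears most on Ccnd1, Ccnd3 and Cdk6. Ccnd2 and Cdkn2d were called lower in both windows, against 12.1% of genes called in the same direction in both. None of the 10 genes was called in opposite directions, which 12.8% of genes were.

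**Figure D4:**
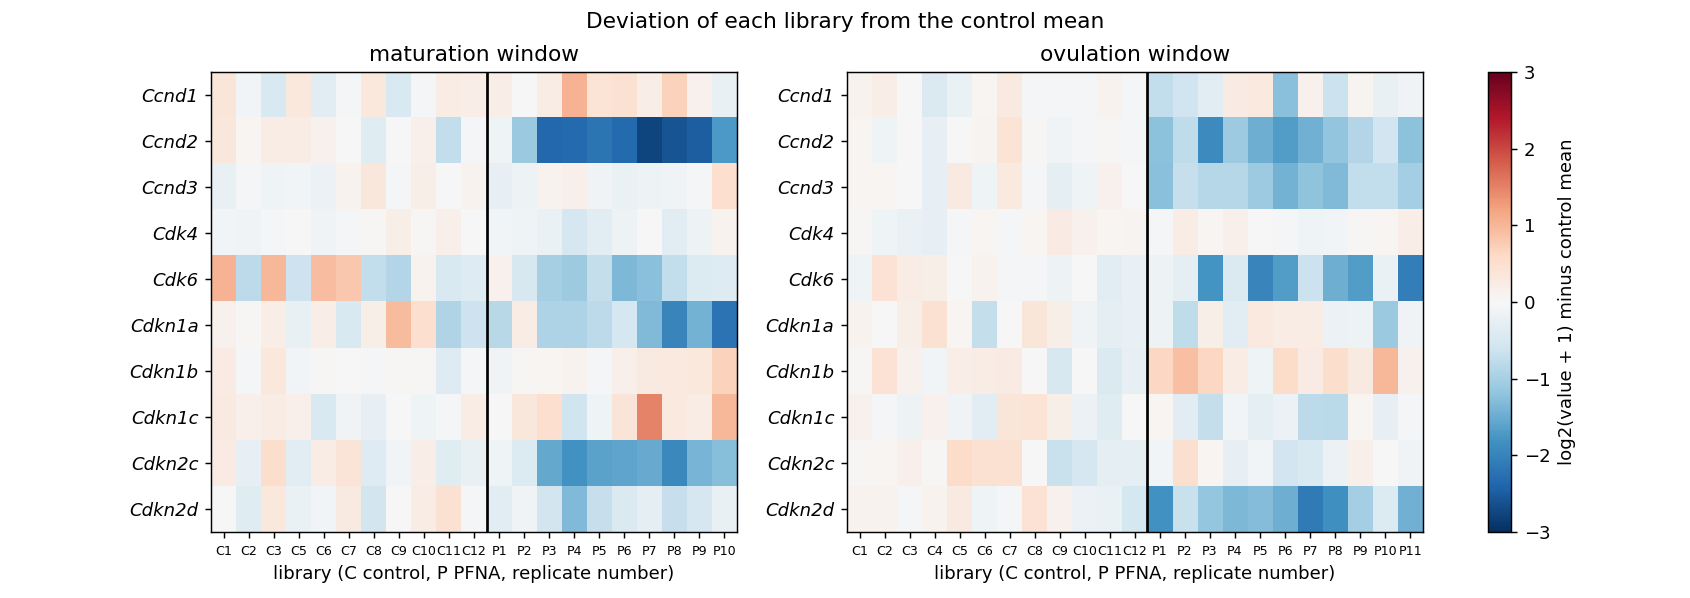
Deviation of each library from the mean of its window's controls on the log2(value + 1) scale, with genes as rows, libraries as columns (C for control, P for PFNA, with the replicate number) and colour running from blue (lower) to red (higher). In the maturation panel the rows of Ccnd2 and Cdkn2c are blue in P3 to P10, while P1 and P2 are paler. In the ovulation panel the rows of Ccnd2, Ccnd3 and Cdkn2d are blue in the PFNA columns.

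Genes that act upstream of, downstream of or beside the D cyclins and inhibitors were read from the same fits. In these, 29.4% of all genes were called during maturation and 73.2% after hCG. Of 20 genes around the retinoblastoma proteins and E2F, 11 fell and 2 rose during maturation (median log2 fold change -0.39), and 8 fell and 9 rose after hCG (median 0.18). The genes with the smallest p during maturation were the E2F genes E2f8 (log2 fold change -1.95, limma adjusted p = 1.12e-05) and E2f1 (-1.35, limma adjusted p = 2.67e-05) and the S-phase kinase gene Cdk2 (-0.42, limma adjusted p = 2.69e-05). After hCG they were E2f6 (0.87, edgeR adjusted p = 6.48e-11), the E2F partner gene Tfdp1 (-0.65, edgeR adjusted p = 1.64e-10) and E2f4 (-0.63, edgeR adjusted p = 4.15e-10). Rbl1, E2f1, E2f8, Ccne2 and Cks1b fell during maturation and rose after hCG. With the oocyte covariate, 4 fell and 1 rose during maturation, and 8 fell and 6 rose after hCG with a median of -0.02.

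S-phase and mitotic genes fell together while follicles matured, alongside the oocyte and granulosa markers given above. All 18 tested S-phase genes fell (median log2 fold change -1.08), led by the replicative helicase genes Mcm2 (-1.10, limma adjusted p = 7.10e-06), Mcm4 (-1.21, limma adjusted p = 8.90e-06) and Mcm3 (-1.51, limma adjusted p = 9.66e-06). All 20 genes of G2 and mitosis fell (median -1.77), led by the spindle gene Tpx2 (-1.61, limma adjusted p = 4.99e-06), the cyclin A gene Ccna2 (-2.06, limma adjusted p = 4.99e-06) and the mitotic kinase gene Plk1 (-1.92, limma adjusted p = 8.34e-06). With the oocyte covariate 9 of the 18 and 18 of the 20 still fell, with medians of -0.62 and -1.02. After hCG, 12 of 20 S-phase genes rose and 2 fell (median 0.52), and 16 of 20 G2 and mitosis genes rose and none fell (median 0.69). Over all genes tested after hCG, 73.2% were called, 38% higher and 35.2% lower. Among the genes with the smallest p there were Pola1 (1.51, edgeR adjusted p = 2.39e-10) and Pcna (-0.75, edgeR adjusted p = 7.66e-07) in S phase, and Ccnb2 (2.17, edgeR adjusted p = 2.85e-10), Nusap1 (1.12, edgeR adjusted p = 3.01e-06) and Cdc20 (0.81, edgeR adjusted p = 3.12e-06) in mitosis. In that window 13 of 21 oocyte markers rose as well (6 with limma on log2(TMM CPM + 1)), and with the oocyte covariate 7 S-phase genes rose and 2 fell (median 0.19), and 7 mitotic genes rose (median 0.25). Called lower during maturation and higher after hCG were 10 S-phase genes (Mcm2, Mcm3, Mcm4, Mcm5, Mcm6, Cdc6, Cdt1, Gins1, Prim1 and Pold1) and 16 mitotic genes (Ccna2, Ccnb1, Ccnb2, Cdc20, Cdc25c, Bub1, Bub1b, Aurkb, Top2a, Birc5, Kif11, Cenpe, Cenpf, Ttk, Nusap1 and Tpx2). Opposite calls were thus made for 10 of 18 S-phase and 16 of 20 mitotic genes, and for 12.8% of all genes tested in both windows. Ccnd2 fell in both windows, but these genes were named for their opposite calls, so that contrast follows from the choice.

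The remaining lists were mixed in direction. Among p53 targets, the class to which Cdkn1a belongs, 5 rose and 3 fell of 18 tested during maturation (median -0.06), with Perp (0.88, limma adjusted p = 0.00145), Ccng1 (-0.55, limma adjusted p = 0.00680) and Trp53inp1 (0.43, limma adjusted p = 0.0158) at the smallest p. After hCG 7 rose and 6 fell of 20 (median 0.07), with Gdf15 (5.46, edgeR adjusted p = 8.24e-13), Aen (-1.07, edgeR adjusted p = 2.18e-09) and Plk2 (-1.46, edgeR adjusted p = 1.70e-08) first, and the share called was not above the 73.2% of all genes. Trp53inp1 and Plk2 rose during maturation and fell after hCG, and Eda2r did the reverse. The maturation calls of Plk2 (0.72, limma adjusted p = 0.0439) and Eda2r (-0.48, limma adjusted p = 0.0495) were near the threshold. With the oocyte covariate no p53 target was called during maturation, and 7 rose and 5 fell after hCG. Of the follicle growth signals, 4 rose and 4 fell of 19 tested during maturation (median 0.13), and 10 rose and 9 fell of 20 after hCG (median 0.08), beside 29.4% and 73.2% of all genes called in either direction. With the oocyte covariate 1 rose and 4 fell during maturation, and 10 rose and 7 fell after hCG. The FSH receptor gene Fshr, through which Ccnd2 is known to be induced, fell during maturation from 6.60 ± 1.30 TPM (n = 11, SD) to 2.30 ± 0.904 TPM (n = 10, SD), a log2 fold change of -1.24 (limma adjusted p = 7.44e-06). After hCG it rose from 13.7 ± 4.03 CPM (n = 12, SD) to 63.1 ± 15.7 CPM (n = 11, SD), a log2 fold change of 2.20 (edgeR adjusted p = 4.67e-12). Inha (-0.74, limma adjusted p = 6.26e-04) and Nr5a2 (-0.51, limma adjusted p = 7.39e-04) followed Fshr by p during maturation, and Foxo1 (1.98, edgeR adjusted p = 5.04e-10) and Igf1r (-0.77, edgeR adjusted p = 2.15e-09) after hCG. Fshr, Inha and Nr5a2 also stand among the granulosa markers given above. Inhbb and Nr5a2 also fell during maturation and rose after hCG, and Smad3 was among those that did the reverse. Of the genes that activate, fold or degrade the cyclins and kinases, 5 rose and 1 fell of 15 tested during maturation (median 0.15), and 8 rose and 6 fell of 16 after hCG (median 0.16). With the oocyte covariate 2 rose and none fell during maturation, and 8 rose and 6 fell after hCG. The CDK-activating kinase gene Cdk7 rose in both windows (0.30, limma adjusted p = 0.00236, and 0.84, edgeR adjusted p = 2.96e-10). Pim3 (-0.69, limma adjusted p = 0.00533) fell during maturation and rose after hCG, where Hsp90ab1 (0.69, edgeR adjusted p = 1.24e-08) was the third by p. Fbxw7 (0.34, limma adjusted p = 0.0133, then -1.17, edgeR adjusted p = 2.45e-13) and Ambra1, both of which serve in ubiquitin ligases, rose during maturation and fell after hCG.

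**Figure D5:**
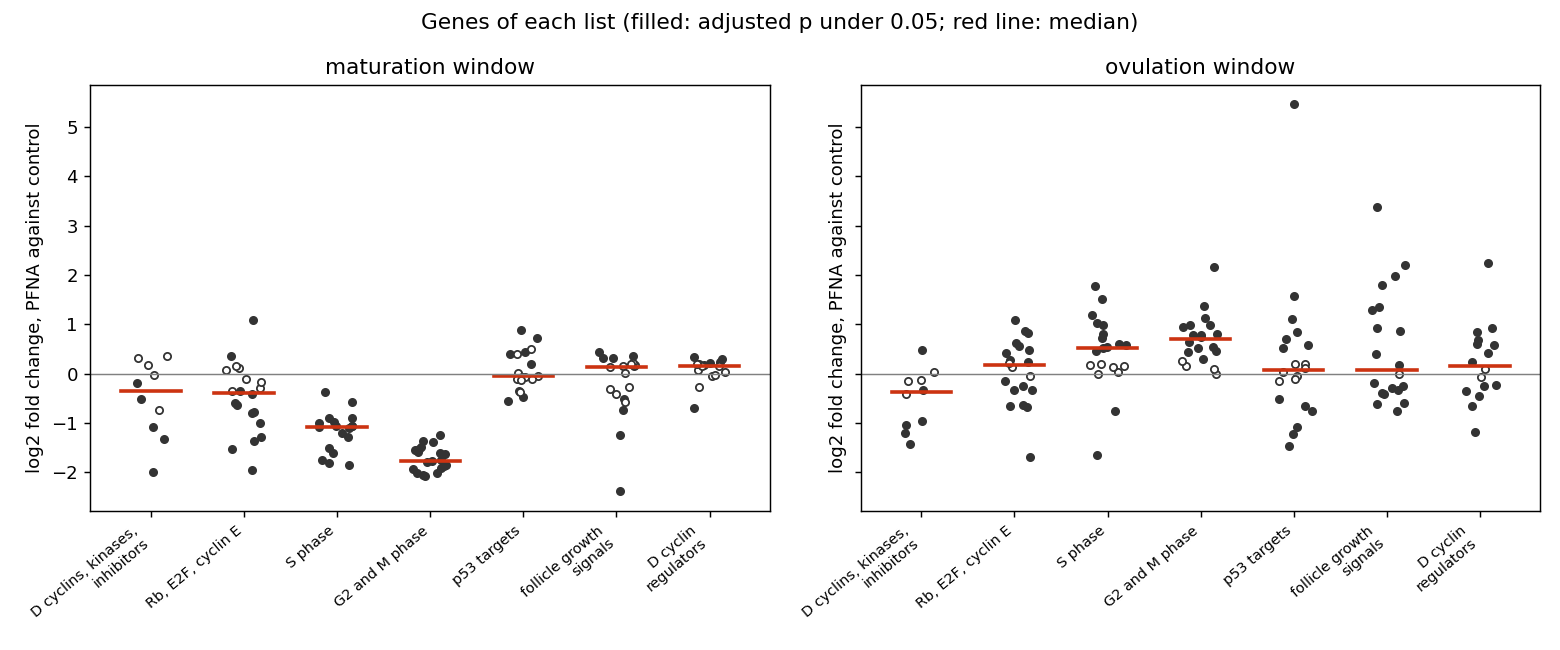
The log2 fold change of each gene of the lists (vertical axis) in the maturation window (left) and the ovulation window (right). Each point is a gene, filled where its adjusted p was under 0.05, and the red line is the median of the list. The G2 and M phase list has a median of -1.77 on the left and 0.69 on the right, while that of the 10 cyclin, kinase and inhibitor genes is -0.34 and -0.37.

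The genes whose libraries followed Ccnd2 most closely were sought by the mean absolute difference between their log2 deviations from the control mean. During maturation, over 21 libraries and 7047 genes, they were Mki67 (mean difference 0.21), Ccna2 (0.22) and Syt7 (0.22), against a median of 1.08 over all genes compared. Mki67 and Ccna2 are markers of dividing cells. After hCG, over 23 libraries and 9017 genes, they were Tbc1d13 (0.15), Zfp251 (0.16) and Fbxl19 (0.16), against a median of 0.64. No gene was among the 3 nearest in both windows, and with so few picked an overlap was not to be expected. The difference was taken over control and PFNA libraries together, so a near gene has a PFNA effect like that of Ccnd2 by selection. Mki67, the nearest in the maturation window, had a log2 fold change of -1.78 there and was not called after hCG (0.26, edgeR adjusted p = 0.191), while Ccnd2 fell in both.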

How the data were processed

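Per the labels' protocols, RNA was isolated with a PicoPure kit, mRNA was captured by its poly-A tail and reverse transcription used random hexamers. The submitters' processing notes name Partek, Bowtie2 and HISAT2, whose versions, roles and genome build are not given in the sources used here. The authors deposited 1 gene table per window. That of the maturation window carries a name of raw counts, but the deposited values are not whole and every library sums to 1000000. They were read as TPM, a unit that no label states: across 5548 genes averaging 10 or more in the controls of both windows, the log2 ratio of the maturation to the ovulation level, both scaled to the same total, fell by 1.12 per doubling of exon length, where division by length alone gives 1. The ovulation table holds the authors' estimated counts, which were rounded to whole numbers before testing. For Ccnd1, Ccnd3, Cdk4 and Cdkn1a, whose exons overlap another annotated gene, the deposited estimated counts were not whole in 22 or 23 of 23 libraries. Ccnd2, Cdk6 and Cdkn1c also overlap other annotated genes, and their values were whole. Gene starts matched GENCODE M21 on GRCm38 for 99.3% of symbols in the maturation table and 37.2% in the ovulation table, so coordinates are 1-based from the first, and exon lengths are from GENCODE M21. A column whose name differs by a letter from the title of maturation control replicate 6 was taken as that library.

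Maturation was tested with limma 3.58.1 (trend, robust) on log2(TPM + 1) for genes averaging 1 TPM or more. Ovulation was tested with edgeR 4.0.16 in R 4.3.3 (quasi-likelihood, filterByExpr, TMM, robust), and its CPM are TMM-scaled. The difference between windows used limma on log2(TMM CPM + 1) and log2(TPM + 1) with Satterthwaite's degrees of freedom. Both tests were fitted over the whole table with Benjamini-Hochberg adjustment, and scripts were tested on simulated data. Libraries with the same replicate number showed no evident pairing, which does not exclude one, and the main fits took no account of the numbers. The 10 genes and the gene lists were chosen with earlier results of these data known. Within each pathway list the genes named are the 3 with the smallest p per window and those called in opposite directions in the windows; some genes these rules select are not reported here. The genes named as nearest to Ccnd2 are the 3 with the smallest mean absolute difference among genes averaging 10 TPM or CPM or more. Alternatives changed the pseudocount, the filter, the scaling, the test, a covariate or the libraries used. Each library pair of an ovulation group differed by more than sampling noise, and no maturation libraries were identical (highest correlation of log2(TPM + 1) within a group 0.981). The labels hold no maturation control replicate 4.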

Additional observations from a re-analysis of the deposited data

Results flagged for a closer look

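Among 15 measures of the 10 maturation PFNA libraries, 6 had an extreme library whose gap to its nearest neighbour passed Dixon's 95% critical value. Chance would give about 0.75 if the values were normally distributed, which TPM need not be. The measures share libraries, and the D cyclin sum is mostly Ccnd2, so the 6 are not independent. PFNA replicate 1 was high in Ccnd2, at 120 TPM against 60.2 TPM in the next library, and therefore in the sum of D cyclins, at 124 TPM against 64.5 TPM. PFNA replicate 2 was high in Cdkn1a, at 50.8 TPM against 29.9 TPM. PFNA replicate 10 was high in Ccnd3 (5.24 TPM against 3.84 TPM), in Cdkn1b (306 TPM against 233 TPM) and in the summed oocyte markers (774 TPM against 337 TPM). The call of Ccnd2 and that of Cdkn1a in the maturation window held without replicate 1 or 2, and Ccnd3 and Cdkn1b were not called with or without replicate 10.

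The effect of PFNA differed between the windows, by the test of the difference itself with limma within each table, for 8 of the 10 genes. The ovulation minus maturation differences on the log2 scale were 1.22 for Cdkn2c, 0.91 for Cdkn1a, 0.77 for Ccnd2 and 0.22 for Cdk4. They were -0.99 for Ccnd3, -0.81 for Cdkn2d, -0.66 for Cdkn1c and -0.60 for Ccnd1. Reads shared with Bysl for Ccnd3 and with Tspan31 for Cdk4 limit those values, as given above. Across all genes 67.7% differed in this test, so a difference between windows was common in these tables.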

How the results depend on the processing

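With the summed oocyte markers as a covariate, 1270 genes were called in the maturation window in place of 4030, and 2 of the 10 genes (Ccnd2 and Cdkn2c) in place of 5. The number of the 10 genes called lay between 4 and 6 for maturation and between 5 and 6 for ovulation when 1 library was left out. Over the same fits the genes called numbered 3586 to 4588 and 9654 to 10029. DESeq2 1.42.0 called the same number of the 10 genes as edgeR after hCG, 6, and 9950 genes in all.

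Changes of sign were limited to values that were not called. Ccnd3 in the maturation window, at -0.02, became 0.0025 after rescaling without genes over 1% of TPM, 0.0227 without PFNA replicates 1 and 2 and 0.12 with the oocyte covariate, and lay between -0.0811 and 0.0114 when 1 library was left out, positive without control replicate 8 (0.0114) or PFNA replicate 1 (0.0022). With the oocyte covariate Ccnd1 in maturation became -0.0353 and Cdkn1a in ovulation 0.0489. Beside the changes given with the results, Cdk6 in the maturation window was called at a pseudocount of 0.1 (-1.12, limma adjusted p = 0.0474), with median-ratio size factors (-0.75, limma adjusted p = 0.0426) and on omitting any one of 6 libraries, control replicates 2, 5, 8, 9 and 11 and PFNA replicate 1. The window difference of Cdkn1b was called with median-ratio size factors (0.33, limma adjusted p = 0.0353) and without ovulation PFNA replicate 5 (0.33, limma adjusted p = 0.0407).

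Libraries with the same replicate number deviated no more alike than others (correlations -0.14 to 0.17 over 9 maturation pairs and -0.19 to 0.07 over 11 ovulation pairs, with 1 and 0 controls closest to their own number). With the replicate number as a block, 2895 genes were called in the maturation window and 9333 in the ovulation window, and 4 and 5 of the 10 genes. Under that block 6 of 21 oocyte markers and 2 of 8 immune markers rose in the ovulation window, in place of 13 and 4. Cdk4 in maturation (-0.13, limma adjusted p = 0.179) and Cdkn1c in ovulation (-0.34, edgeR adjusted p = 0.0803) were not called under the block. Depth is unknown for the maturation table, and in the ovulation table it limits Ccnd1, whose counts were between 0 and 29.5.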
